A study of Mus musculus with 1078 samples.

Results

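The cells described here were tumor endothelial cells (TECs), the cells that line the blood vessels of GL261 tumors, from mice given losartan+anti-PD1 and from control mice. Members were the cells that carried the deposited endothelial label on the CD31-positive plates of both treatments, 16 from losartan+anti-PD1 and 43 from control. They made up 59 of the 1078 cells in the series. The CD31-positive plates of losartan and of anti-PD1 held 57 and 79 further cells with the label, and 6 lay outside these 4 plates. GL261 is a mouse glioma line, grown here in the brain of syngeneic C57Bl/6 mice of both sexes that were 6 to 8 wk old. Treated mice received losartan, an angiotensin receptor blocker, daily at 60 mg/kg, and after 1 wk an antibody against PD1, an inhibitory receptor of T cells, at 200 μg per mouse every 3 d for 3 doses. Control mice received PBS and IgG in place of both agents, and tissue was taken after the third antibody dose and/or 2 wk of losartan. Both groups carried unmodified tumors and shared the sort for live CD31-positive cells and Smart-seq2, which reads whole transcripts of single cells sorted into wells.

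No label named an animal, so each treatment was 1 sample on 1 plate. No test was possible, and treatment and plate cannot be told apart. Values are transcripts per 100000 in a cell (TP100K), a length-corrected share of that cell's transcripts. Differences are log2 ratios of the group means after adding 1 TP100K, which understates differences of low genes. A gene was counted as measured when 25% or more of the cells in at least 1 group had a value above 0, and 7003 of 21765 genes were. Where under 25% of the cells of 1 group were above 0, a gene passed this filter only through the other group. This holds for lower as for higher genes. The text calls a gene past 2-fold at a log2 ratio of 1 or more in either direction.

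Brain endothelium forms the blood-brain barrier through tight junctions and transporters, and tumor vessels lose part of this character and gain fenestrations. Interferon-gamma from T cells and NK cells acts on endothelium through JAK kinases and leads to binding at gamma-activated sites, while type I interferon acts through a complex that binds the interferon-stimulated response element. Their targets include large GTPases of the GBP and IRG families that defend cells against intracellular pathogens, MHC genes that present peptides, and chemokines that draw T cells to the vessel wall.

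Promoters are shown for 4 interferon-induced GTPases that held both motifs described below, and for Cxcl10. RefSeq promoters, 250 bases before to 50 after the gene start on GRCm38.p6, were found for 10 of 15 interferon-induced GTPases (11 promoters). None was found for Gbp4, Gbp6, Gbp9, Iigp1 and Gvin1. The motifs searched on both strands were GAAANNGAAA for the interferon-stimulated response element and TTCNNNGAA for the gamma-activated site. Of 32851 RefSeq promoters, 3.44% held the first, 8.30% the second and 0.454% both. Among the GTPases with a promoter, 9 held the first motif, 6 the second and 6 both. Gbp2, Gbp3 and Irgm1 held only the first, and Ifi47 held neither. Capitals mark the motif letters in the sequences of Igtp (chr11:58199306-58199605, plus strand), Tgtp2 (chr11:49064163-49064462, minus strand), Gbp5 (chr3:142496684-142496983, plus strand), Gbp7 (chr3:142530086-142530385, plus strand) and the chemokine gene Cxcl10 (chr5:92348840-92349139, minus strand), each written 5′ to 3′ on the gene's strand.
Igtp: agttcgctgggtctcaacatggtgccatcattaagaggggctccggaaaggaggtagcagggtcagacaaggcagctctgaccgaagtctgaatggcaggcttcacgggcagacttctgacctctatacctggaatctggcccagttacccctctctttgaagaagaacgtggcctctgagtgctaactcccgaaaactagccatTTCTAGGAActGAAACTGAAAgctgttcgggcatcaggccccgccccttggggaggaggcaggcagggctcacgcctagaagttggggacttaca
Tgtp2: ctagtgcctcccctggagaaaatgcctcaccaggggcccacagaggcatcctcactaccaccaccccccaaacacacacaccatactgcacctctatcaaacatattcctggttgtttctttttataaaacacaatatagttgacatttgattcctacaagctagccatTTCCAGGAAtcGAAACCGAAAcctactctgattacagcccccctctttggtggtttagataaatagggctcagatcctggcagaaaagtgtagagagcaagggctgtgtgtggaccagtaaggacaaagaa
Gbp5: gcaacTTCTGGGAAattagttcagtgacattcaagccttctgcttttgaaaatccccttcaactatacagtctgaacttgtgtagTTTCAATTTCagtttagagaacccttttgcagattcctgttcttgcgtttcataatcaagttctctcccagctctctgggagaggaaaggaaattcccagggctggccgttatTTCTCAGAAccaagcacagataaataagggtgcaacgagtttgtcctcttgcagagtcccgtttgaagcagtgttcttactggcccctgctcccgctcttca
Gbp7: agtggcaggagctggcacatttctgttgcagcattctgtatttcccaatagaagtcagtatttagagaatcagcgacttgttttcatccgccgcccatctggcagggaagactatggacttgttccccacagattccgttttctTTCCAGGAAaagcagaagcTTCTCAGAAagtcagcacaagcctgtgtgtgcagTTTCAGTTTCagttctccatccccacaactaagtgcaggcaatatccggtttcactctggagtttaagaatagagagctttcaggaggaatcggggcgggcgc
Cxcl10: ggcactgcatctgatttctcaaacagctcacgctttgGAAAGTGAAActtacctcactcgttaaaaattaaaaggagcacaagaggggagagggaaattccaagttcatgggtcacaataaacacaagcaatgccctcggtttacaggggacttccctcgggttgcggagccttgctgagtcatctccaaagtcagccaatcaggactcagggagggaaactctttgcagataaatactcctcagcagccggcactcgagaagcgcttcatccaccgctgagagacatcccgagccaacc
Igtp and Tgtp2 held the 2 motifs side by side, the response element 34 and 70 bases before the gene start and the gamma-activated site 45 and 81 bases before it. Gbp5 and Gbp7 each held 1 response element and 2 gamma-activated sites. Cxcl10 held only a response element, near the upstream end of the window, and among the 11 members of the chemokine list with a promoter 2 held that motif and 0 held the gamma-activated site. A match describes letters in this window and not binding.

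The endothelial label was checked first against its markers. All 14 endothelial markers were measured, among them Pecam1, which encodes CD31 and was above 0 in 16 of 16 losartan+anti-PD1 cells and 42 of 43 control cells. Their summed level ranged from 593 to 3507 TP100K in losartan+anti-PD1 TECs (median 2095) and from 1028 to 4586 in control TECs (median 1876). The 12 macrophage and microglia markers summed to at most 0.104 TP100K in any losartan+anti-PD1 TEC and 52.6 in any control TEC, and Aif1, C1qa, C1qb, C1qc, Itgam, Fcer1g and Lyz2 were at 0 in all 59 cells. The 10 T and NK cell markers summed to at most 15.1 against 17.2, with Cd3e, Cd3g and Gzmb at 0 throughout. Pericyte, oligodendrocyte and fibroblast markers summed to at most 1.35 in losartan+anti-PD1 cells and 12.97 in control cells, those of red blood cells to 0.705 and 143.2, those of astrocytes to 74.1 and 98.004, and those of malignant glioma to 25.3 and 14.5.

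The mix of TECs differed between the groups and stands beside every result that follows. The 16 losartan+anti-PD1 cells split into 5, 4 and 7 cells of the deposited clusters 3, 7 and 12, and the 43 control cells into 3, 28 and 12. Cluster 7 thus held 25% (exact 95% interval 7.27 to 52.4%, counting error over cells only) of losartan+anti-PD1 TECs and 65.1% (49.1 to 78.99%) of control TECs. Cells of cluster 12 mostly lacked Cldn5, the main tight junction claudin of brain endothelium, which was above 0 in 1 of 7 and 1 of 12 of them. They all carried Plvap, the diaphragm protein of fenestrated vessels, at 89.7 to 542 TP100K in the losartan+anti-PD1 group and 76.8 to 470 in control. Cells of clusters 3 and 7 all carried Cldn5, at 84.4 to 1647 TP100K against 206.5 to 1969, and Plvap was above 0 in only 2 of them, 1 in each group. Every TEC of both groups was therefore above 0 for Cldn5 or Plvap, and only 2 of 16 and 2 of 43 for both. Losartan+anti-PD1 cells had 1142 to 7171 genes above 0 (median 3366) and control cells 1023 to 6697 (median 3620). All 5 losartan+anti-PD1 cells under 2000 genes were in cluster 12.

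Across all genes measured, 868 (12.4%) were at least 2-fold higher with losartan+anti-PD1 and 941 (13.4%) at least 2-fold lower, with a median log2 ratio of -0.05. Of those lower, 19 were at 0 in every losartan+anti-PD1 cell, and of those higher, 2 were at 0 in every control cell. Without the cell of highest value in the higher group, 667 genes stayed past 2-fold, of which 480 were lower. The plot of list members past 2-fold sets each list beside these shares. The 12.4% and 13.4% of all genes measured are the background for every count of TEC list members past 2-fold below. Interferon-induced GTPases, all of which were measured, had 9 of 15 members at least 2-fold higher. In the chemokine list 7 of 14 genes did not pass the filter, and 4 of its members passed it only through the losartan+anti-PD1 group, so its share is a description of the filtered genes.

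**Figure D1:**
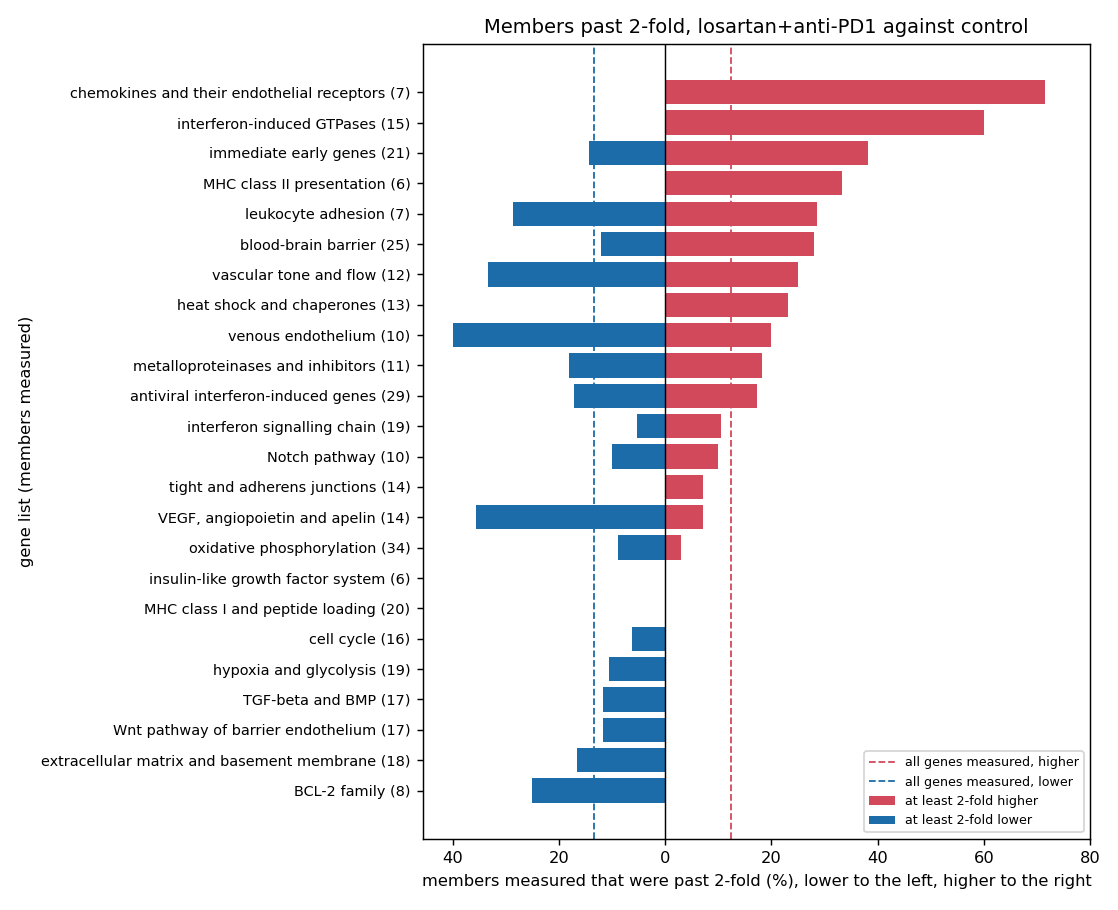
Percentage of each list's measured members that were at least 2-fold higher (right, red) or lower (left, blue) in losartan+anti-PD1 TECs than in control TECs, for lists with at least 6 members measured (number in brackets). Dashed lines mark all genes measured, 12.4% higher and 13.4% lower, and the GTPase list reaches 9 of 15 members on the right. In the chemokine list 4 of the 7 members shown passed the filter only through losartan+anti-PD1 cells.

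Interferon-induced GTPases were higher in losartan+anti-PD1 TECs as a group. All 15 listed genes were measured, 14 had a log2 ratio above 0 (background 47.7%), 9 were at least 2-fold higher and 0 at least 2-fold lower, and the median log2 ratio was 1.23. Of the list, 8 of 15 genes were higher in each of clusters 3, 7 and 12 taken alone, against 10.8% of all genes measured. Gbp4 (ENSMUSG00000079363.7, chr5:105115767-105139586), a guanylate-binding protein gene, was above 0 in every losartan+anti-PD1 cell, at 4.72 to 388 TP100K with a median of 68.4. In control cells Gbp4 was above 0 in 27 of 43, with a median of 5.74 and a highest value of 327. The ranges overlapped, but 15 of 16 losartan+anti-PD1 cells lay above the control median, and the log2 ratio was 2.12. By cluster, mean Gbp4 was 91.8 against 10.99 TP100K in cluster 3, 111.7 against 12.98 in cluster 7 and 160.5 against 68.8 in cluster 12.

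Gbp6 (chr5:105270702-105293698), a paralog of Gbp4, had the largest log2 ratio of the list, 3.01. It ranged from 0 to 186.25 TP100K over losartan+anti-PD1 cells (median 6.02, 12 of 16 above 0) and from 0 to 25.8 over control cells (median 0, 18 of 43 above 0). Of the losartan+anti-PD1 cells, 5 of 16 lay above the highest control cell. Igtp (chr11:58199556-58207591), which encodes the immunity-related GTPase Irgm3, had a median of 69.1 TP100K and a highest value of 458, against 10.5 and 215.03 in control. Its log2 ratio was 1.92 over all cells, 1.61 in cluster 3, 2.24 in cluster 7 and 1.76 in cluster 12, although 12 of 16 and 33 of 43 cells were above 0, a like share. Igtp therefore differed in level among the cells that carried it more than in the share of such cells. Ifi47, another IRG family GTPase, averaged 87.2 against 26.6 TP100K, with log2 ratios of 1.33, 1.58 and 2.12 in clusters 3, 7 and 12. Tgtp2 (1.37), Gbp5 (1.37), Iigp1 (1.297), Gbp7 (1.23) and Irgm1 (1.05) were the other members past 2-fold on the log2 scale.

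Members did not all follow the same pattern across clusters. Gbp5 was above 0 in 3 of 5 and 3 of 4 losartan+anti-PD1 cells of clusters 3 and 7 but in 0 of 7 of cluster 12, where 3 of 12 control cells carried it. Gbp2 averaged 86.2 and 198.04 TP100K in clusters 3 and 7 against 0.0867 and 21.4 in control, and 1.98 against 115.6 in cluster 12. Gbp7 averaged 8.06 against 8.79 TP100K in cluster 3. Gvin1, a giant GTPase, was the only member with a log2 ratio below 0, at -0.62. GBP and IRG genes form families with near-identical copies, Tgtp1 and Tgtp2 above all, and RSEM splits reads among them, so the split between such members is uncertain.

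**Figure D2:**
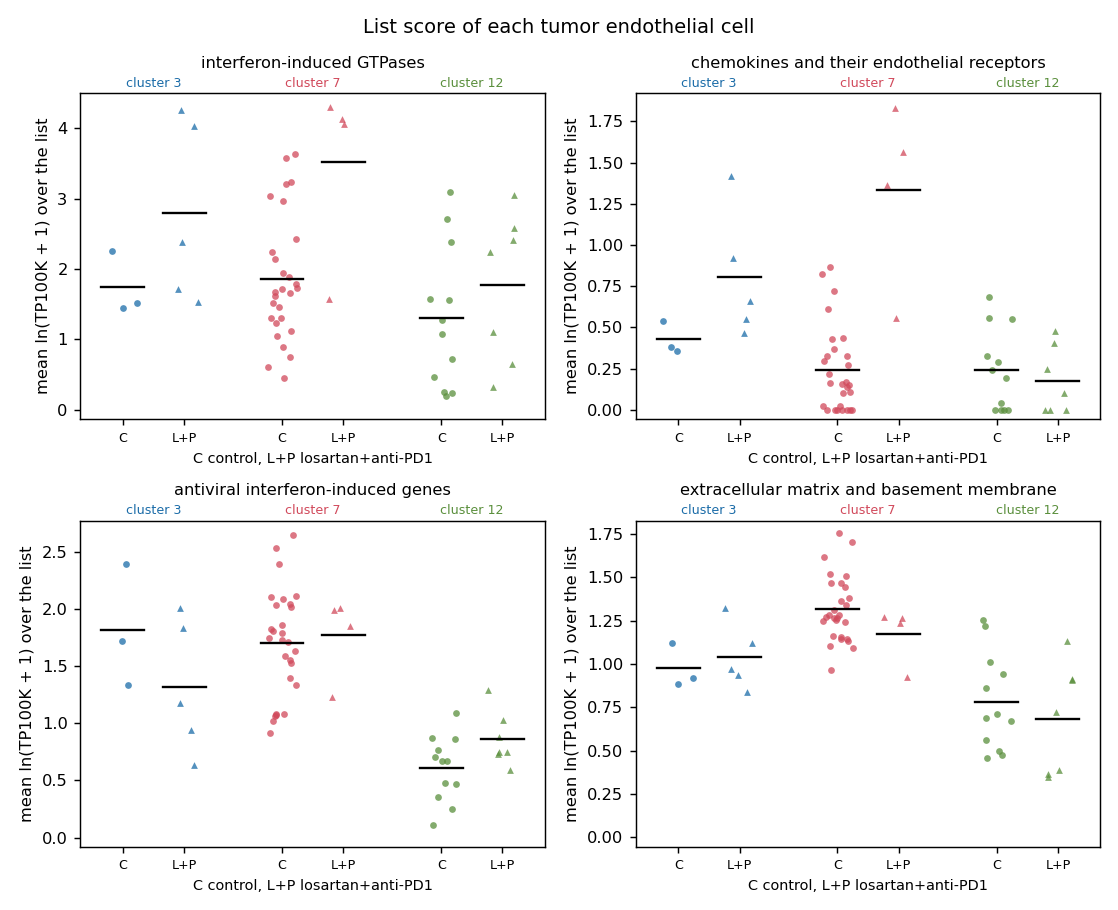
Score of each TEC for 4 lists, the mean of ln(TP100K + 1) over the list's members, by deposited cluster, with control cells as circles (C), losartan+anti-PD1 cells as triangles (L+P) and a bar at the mean. GTPase scores of losartan+anti-PD1 cells reach 4.30 against 3.64 in control, while scores of the antiviral and matrix lists do not pass the highest control cell.

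Scored cell by cell as the mean of ln(TP100K + 1) over the 15 genes, the GTPase list ranged from 0.322 to 4.30 with losartan+anti-PD1 (median 2.40) and from 0.189 to 3.64 in control (median 1.58). Of the 16 losartan+anti-PD1 cells, 12 lay above the control median and 5 above the highest control cell, 3 of them in cluster 7 and 2 in cluster 3. Median scores in clusters 3, 7 and 12 were 2.39, 4.10 and 2.25, against 1.51, 1.70 and 1.18. The lowest losartan+anti-PD1 scores, 0.322, 0.655 and 1.11, were cells of cluster 12, so the groups overlapped widely there.

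Malignant cells of the same plates, 51 from losartan+anti-PD1 and 33 from control, were set beside the TECs. Between losartan+anti-PD1 and control they differed little, with 0.571% of 9979 genes at least 2-fold higher and 0.842% at least 2-fold lower. Malignant cells had more genes above 0 (medians 7181 and 7188) than TECs (3366 and 3620), whose clusters were also unevenly mixed. Shares of genes past 2-fold therefore do not rest on a like basis in both cell types. In malignant cells too 14 of 15 GTPases had a log2 ratio above 0, with a median of 0.66, and 6 were at least 2-fold higher. Gbp4 averaged 32.99 against 6.48 TP100K (log2 ratio 2.18), and Igtp 191.3 against 74.6 (1.35). Gbp6 was further apart between the cell types, at 30.9 against 19.4 TP100K in malignant cells (0.64). The difference between the cell types was not tested.

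**Figure D3:**
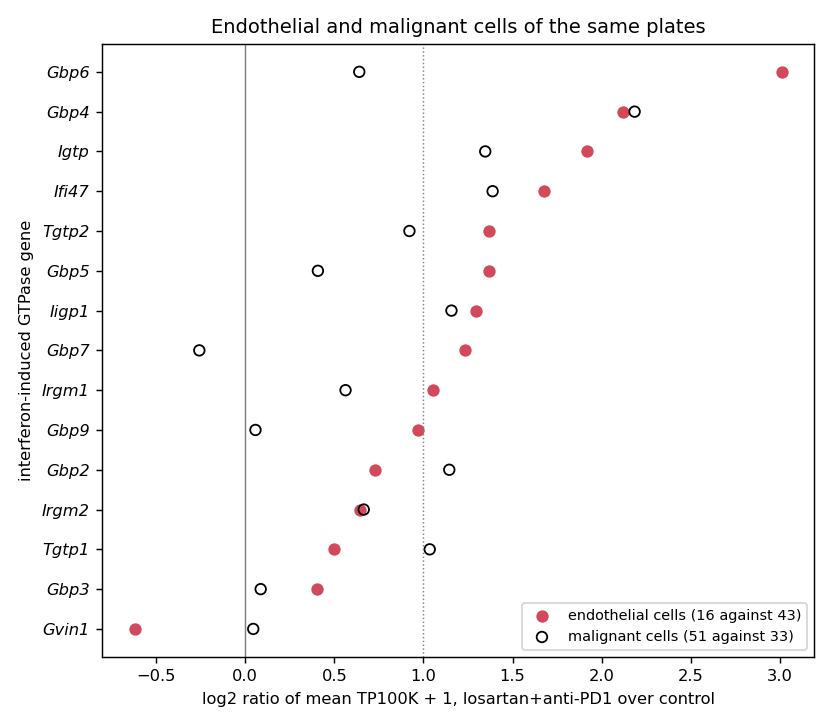
Log2 ratio of losartan+anti-PD1 over control for each interferon-induced GTPase in TECs (filled) and in malignant cells of the same plates (open), with a dotted line at 2-fold. Gbp4 lies at 2.12 and 2.18, and Gbp6 at 3.01 and 0.64.

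Several chemokines and the ubiquitin-like modifier Ubd were higher in losartan+anti-PD1 TECs, in a minority of cells. Ubd is in no list, was named by the size of its difference and passed the filter only through losartan+anti-PD1 cells. Of the 16 genes of the chemokine list 14 were in the table. Cxcl9, Cxcl10, Cxcl11, Cxcl16 and Ccl19 were at least 2-fold higher, while Cx3cl1 (log2 ratio 0.89) and Cxcl12 (0.60) were not past 2-fold. Ccl21a (2 of 16 and 7 of 43 cells), Ccl5, Cxcl2 and Cxcr4 were above 0 in too few cells to count as measured, and Cxcl1, Ccl2 and Ccl7 were listed at 0 in all cells. The median log2 ratio of the 7 measured was 2.40, but Cxcl9, Cxcl10, Cxcl11 and Cxcl16 passed the filter only through the group where they were higher, and it was 0.89 with no filter and 0.00 in cluster 12. Cxcl10 (chr5:92346638-92348889), a ligand of the T cell receptor CXCR3, was above 0 in 6 of 16 losartan+anti-PD1 cells (37.5%, exact 95% interval 15.2 to 64.6%) and 2 of 43 control cells (4.65%, 0.568 to 15.8%). It ranged from 0 to 444 TP100K against 0 to 96.3, 4 losartan+anti-PD1 cells lay above the highest control cell, and the log2 ratio was 4.13. Cxcl9 (log2 ratio 2.40) and Cxcl11 (3.25), the other CXCR3 ligands, which neighbour Cxcl10 on chromosome 5, were above 0 in 6 and 5 of 16 cells against 9 and 4 of 43. Cxcl9 and Cxcl10 were both above 0 in 5 of 16 losartan+anti-PD1 cells and 1 of 43 control cells.

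Every Cxcl10-positive cell of both groups was also Cldn5-positive. In cluster 12, 0 of 7 and 0 of 12 cells were above 0 for Cxcl9, Cxcl10, Cxcl11, Ccl19 or Ubd, at a lower number of genes per cell (median 1333 with losartan+anti-PD1 and 1774.5 in control). In cluster 7, Cxcl10 averaged 142.2 TP100K with losartan+anti-PD1 (3 of 4 cells above 0) and 4.46 in control (2 of 28). In cluster 3, 3 of 5 losartan+anti-PD1 cells were above 0, at a mean of 101.97 TP100K, and all 3 control cells were listed at 0. Ccl19, a ligand of CCR7 on naive T cells and dendritic cells, was above 0 in 4 of 4 losartan+anti-PD1 cells of cluster 7, at 42.4 to 1133 TP100K, and in 9 of 28 control cells, at up to 189.3. Its order was the opposite in cluster 3, with a mean of 0.188 against 23.1 TP100K. Ubd (chr17:37193892-37196095), an interferon-induced modifier that targets proteins to the proteasome, ranged from 0 to 1131 TP100K against 0 to 228.5, with 6 of 16 and 4 of 43 cells above 0 and a log2 ratio of 4.45. Ubd and Cxcl10 were both above 0 in 5 of 16 and 1 of 43 cells.

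**Figure D4:**
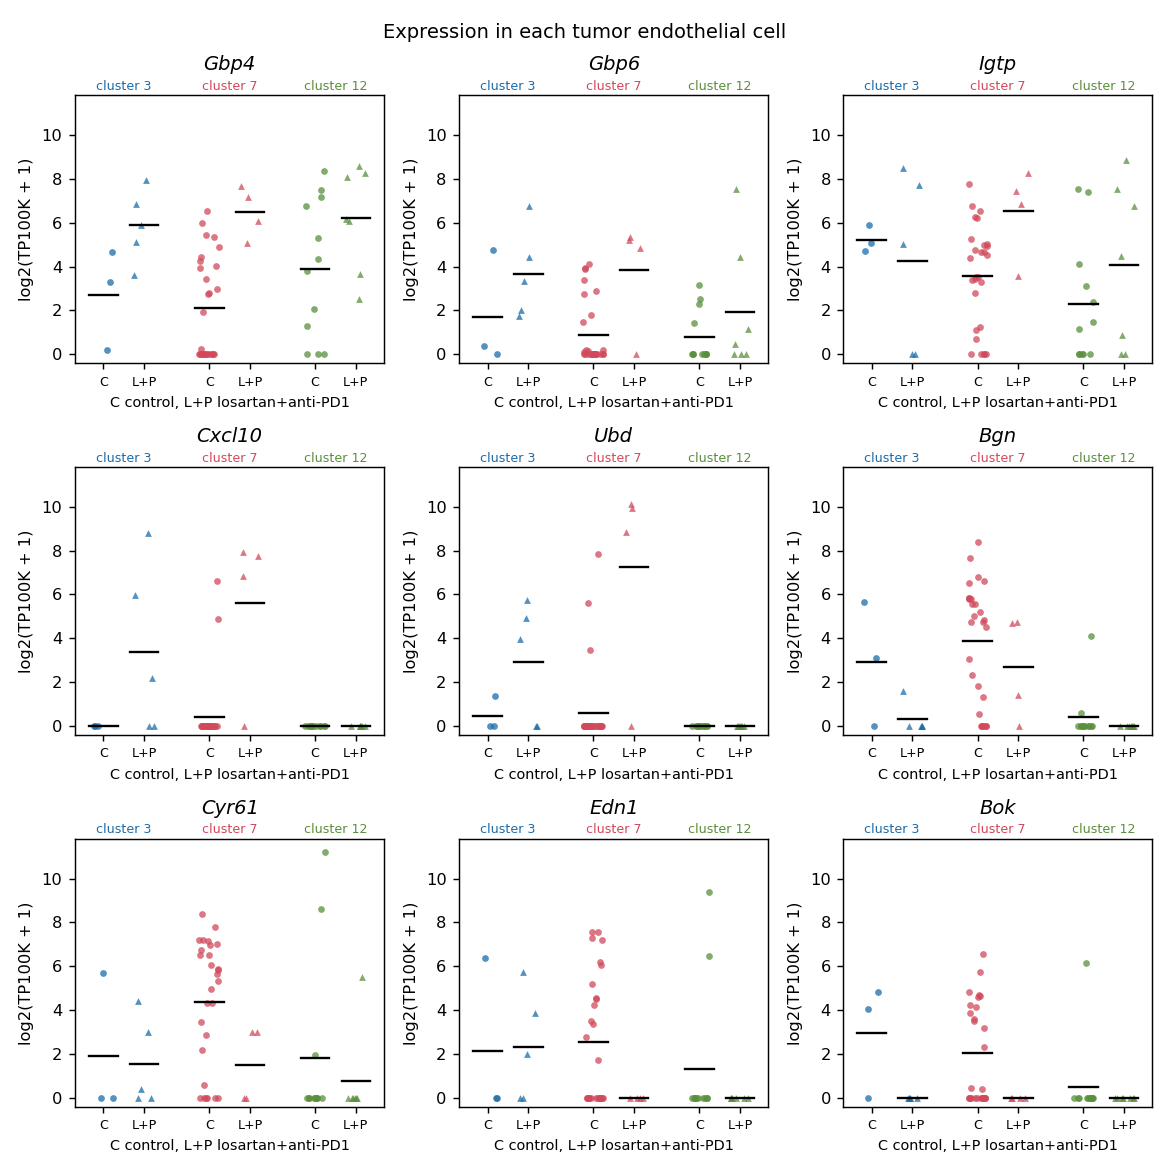
Log2(TP100K + 1) of 9 genes in each TEC, by deposited cluster, with control cells as circles (C), losartan+anti-PD1 cells as triangles (L+P) and a bar at the mean of the plotted values. Gbp4 is above 0 in all 16 losartan+anti-PD1 cells, Cxcl10 and Ubd are above 0 only in clusters 3 and 7, and Bok is at 0 in all 16.

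Antiviral interferon-induced genes did not share the direction of the GTPases. Of 29 measured members of this list, 11 had a log2 ratio above 0 (47.7% of all genes measured). Of these 29, 5 were at least 2-fold higher (12.4%) and 5 at least 2-fold lower (13.4%), with a median of -0.35. Isg15, a ubiquitin-like protein of the type I interferon response, averaged 21.4 against 34.2 TP100K (log2 ratio -0.65), and 4 of 16 losartan+anti-PD1 cells lay above the control median of 22.3. Ifit3, which binds foreign RNA with its relatives, averaged 34.7 against 44.6. Oas2, a sensor of double-stranded RNA, was above 0 in 1 of 16 and 20 of 43 cells (log2 ratio -2.53), and all 20 control cells were in cluster 7. Oas2 passed the filter only through control cells. Rsad2, the antiviral enzyme viperin, stood at a log2 ratio of 2.24 over all cells, -0.73 in cells with 2000 to 6000 genes and -2.77 in cluster 3. Usp18, which removes ISG15 from proteins, stood at 1.27. A single cell at 252.6 TP100K decided Usp18, whose log2 ratio without it was -1.42. The list's score had a median of 1.10 with losartan+anti-PD1 and 1.53 in control, and 5 of 16 cells lay above the control median. By cluster the order varied, with median scores of 1.17 against 1.72 in cluster 3, 1.92 against 1.74 in cluster 7 and 0.748 against 0.669 in cluster 12.

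Genes of the interferon signalling chain showed smaller differences. Of 19 measured, 14 had a log2 ratio above 0 (47.7% of all genes measured). At least 2-fold higher were 2 (12.4%) and at least 2-fold lower 1 (13.4%), and 6 were higher in each cluster (10.8%). Irf1, a transcription factor that interferon-gamma induces, averaged 47.3 against 33.8 TP100K (log2 ratio 0.47). Those past 2-fold were Ciita (1.48), the regulator of MHC class II genes, above 0 in 4 of 16 and 1 of 43 cells, Socs3 (1.32), a feedback inhibitor of cytokine receptors, and Jak1 (-1.47), a kinase of interferon receptors. Ciita passed the filter only through losartan+anti-PD1 cells. Il15ra, which presents interleukin 15 to T cells and NK cells, was above 0 in 9 of 16 losartan+anti-PD1 cells (56.2%, exact 95% interval 29.9 to 80.2%) and 7 of 43 control cells (16.3%, 6.8 to 30.7%), with a log2 ratio of 1.92. Il15ra is in no list, was named by the size of its difference and passed the filter only through losartan+anti-PD1 cells.

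Class I antigen presentation genes were not past 2-fold over all cells, and the medians of class I and class II genes differed in direction between clusters. Of the 20 class I and peptide loading genes, all measured, 15 had a log2 ratio above 0 (47.7% of all genes measured). At least 2-fold higher were 0 (12.4%) and at least 2-fold lower 0 (13.4%). Their median log2 ratio was 0.35 over all cells, 0.13 in cluster 3, 0.82 in cluster 7 and -0.25 in cluster 12. All 6 class II genes had a log2 ratio above 0 (47.7% of all genes measured) and 2 were at least 2-fold higher (12.4%), with a median of 0.73. That median was 4.12 in cluster 3, 1.65 in cluster 7, -2.32 in cluster 12 and 0.16 in clusters 7 and 12 together. H2-Aa, a class II chain, averaged 48.6 against 16.7 TP100K (log2 ratio 1.49) with 7 of 16 and 10 of 43 cells above 0, and Cd74, the invariant chain, 66.01 against 40.5 (0.69). H2-Aa passed the filter only through losartan+anti-PD1 cells. Cd74 averaged 102.9 against 19.9 in cluster 3 and 112.8 against 30.1 in cluster 7, but 12.9 against 70.1 in cluster 12. In malignant cells of the same plates 5 of 6 class II genes were at least 2-fold higher (0.571% of 9979 genes measured in malignant cells), Cd74 at 83.3 against 23.4 TP100K.

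Molecules that hold or address T cells were divided. Of 7 measured adhesion genes 2 were at least 2-fold higher (12.4% of all genes measured) and 2 at least 2-fold lower (13.4%). Both higher genes, Vcam1 and Selp, passed the filter only through losartan+anti-PD1 cells. The median log2 ratio of the list was 0.76 over all cells and -0.25 in clusters 7 and 12. Vcam1, the ligand of VLA-4 on leukocytes, averaged 36.003 against 5.72 TP100K (log2 ratio 2.46) with 6 of 16 and 9 of 43 cells above 0, but its log2 ratio was -0.25 in clusters 7 and 12 alone. Selp, the selectin that starts leukocyte rolling, was above 0 in 4 of 16 and 1 of 43 cells (1.53). Icam1, the ligand of LFA-1, averaged 7.61 against 18.5 (-1.18). Mcam, the adhesion molecule CD146, was above 0 in 8 of 16 and 30 of 43 cells at medians of 0.284 and 18.4 TP100K, with a log2 ratio of -2.11. Mcam was lower in each cluster, with 2 of 16 losartan+anti-PD1 cells above the control median. Among 5 measured T cell ligands, Cd40 (-2.31) and Pvr (-1.82) were at least 2-fold lower, and Cd274, which encodes the PD1 ligand PD-L1, averaged 3.95 against 1.84 TP100K (0.80) with 6 of 16 and 11 of 43 cells above 0.

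Some genes of the VEGF, angiopoietin and apelin pathways were lower, with no common direction of the list. Of 14 measured, 5 had a log2 ratio above 0 (47.7% of all genes measured), 5 were at least 2-fold lower (13.4%) and 1 at least 2-fold higher (12.4%). The median log2 ratio was -0.26, 0.04 with no filter and 0.14 in cluster 3. Angpt2 (chr8:18690263-18741562), the antagonist of the endothelial receptor Tie2, was above 0 in 5 of 16 cells at up to 39.7 TP100K and in 21 of 43 control cells at up to 193.2. Its log2 ratio was -2.12, and it averaged 10.8 against 24.9 TP100K in cluster 7 and 2.05 against 22.1 in cluster 12. Esm1 (-1.36), a proteoglycan of tip cells, Aplnr (-1.38), the apelin receptor, and its ligand Apln (-1.12) were the others, besides Flt4. Apln averaged 58.4 against 52.8 TP100K within cluster 7, and the part of the cluster mix in its lower mean over all cells was not tested. Flt4, which encodes the VEGF receptor VEGFR3, was above 0 in 9 of 16 and 35 of 43 cells, at a mean of 4.36 against 12.1 TP100K. Flt4 was lower in each cluster, with log2 ratios of -0.79, -1.43 and -1.42 in clusters 3, 7 and 12. The main VEGF receptors Kdr (log2 ratio -0.17) and Flt1 (0.50) were not past 2-fold, and Tek, which encodes Tie2, was higher (1.16). Nrarp, a Notch target of sprouting endothelium, was above 0 in 2 of 16 and 16 of 43 cells (-1.79). Esm1 and Nrarp passed the filter only through control cells.

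Edn1, Cyr61 and Ctgf were lower in losartan+anti-PD1 TECs, while the list of vascular tone and flow genes that holds them was divided. Among 12 measured genes of vascular tone and flow, 4 were at least 2-fold lower (13.4% of all genes measured) and 3 at least 2-fold higher (12.4%). Of the lower genes, Edn1 and Ctgf passed the filter only through control cells, so this count is a description of the filtered genes. Edn1 (chr13:42301476-42307990), which encodes the vasoconstrictor endothelin-1, was above 0 in 3 of 16 cells (18.8%, exact 95% interval 4.05 to 45.6%), all in cluster 3, and in 17 of 43 control cells (39.5%, 24.98 to 55.6%). It ranged from 0 to 52.1 TP100K against 0 to 666, with a log2 ratio of -3.00. In cluster 7, Edn1 was listed at 0 in 4 of 4 losartan+anti-PD1 cells and averaged 33.9 TP100K in control, with 14 of 28 cells above 0. Cyr61, a matricellular target of the YAP coactivator, averaged 5.40 against 109.2 TP100K, with a highest value of 44.3 against 2372 and a log2 ratio of -4.11. A single control cell of cluster 12 carried that highest value, and the log2 ratio without it was -3.14. In cluster 7, where 22 of 28 control cells were above 0, Cyr61 averaged 3.55 against 67.1 TP100K. Ctgf, a YAP target of the same family as Cyr61, was above 0 in 1 of 16 and 16 of 43 cells (-1.85). In malignant cells Cyr61 was higher with losartan+anti-PD1 (16.4 against 6.23 TP100K). The flow-induced factors Klf2 (-1.10) and Klf4 (-0.98) were lower over all cells, and Klf2 was higher within clusters 3 and 7. Cav2, a caveolin of endothelial membranes, was higher over all cells (2.18) and lower in cluster 3 (-1.79), and Nos3, the endothelial nitric oxide synthase, differed little (-0.26).

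The matrix list had a median log2 ratio below 0 over all cells and close to 0 with the clusters weighted equally. Of 18 measured members of the matrix and basement membrane list, 5 had a log2 ratio above 0 (47.7% of all genes measured). At least 2-fold higher were 0 (12.4%) and at least 2-fold lower 3 (13.4%), with a median of -0.46. With clusters 3, 7 and 12 weighted equally that median was -0.05. Bgn (chrX:73483602-73495933), the proteoglycan biglycan, was above 0 in 4 of 16 cells and 26 of 43 control cells, at up to 26.2 against 330 TP100K, with a log2 ratio of -2.93. It was lower in each cluster, at 0.395 against 18.9 TP100K in cluster 3 and 13.1 against 47.3 in cluster 7, and listed at 0 in 7 of 7 losartan+anti-PD1 cells of cluster 12. Fstl1 (-1.26), a secreted follistatin-like glycoprotein, was also lower in each cluster, and Nid2 (-1.40), a basement membrane linker, was the other member past 2-fold. Sparc, a secreted collagen-binding protein, was lower in each cluster by less, at 185.6 against 309 TP100K (-0.73). Col4a1 (-0.66) and Col4a2 (-0.58), the main collagen chains of the basement membrane, were lower over all cells but averaged 68.2 against 57.5 and 83.7 against 75.7 TP100K within cluster 7.

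The proteases of the matrix gave single values. Mmp14 and Mmp15 encode the membrane-type metalloproteinases MT1-MMP and MT2-MMP. Mmp14 averaged 1.41 against 5.48 TP100K (log2 ratio -1.43), with 4 of 16 and 19 of 43 cells above 0, and in cluster 7, which held all 19 control cells, 4.85 against 8.42. Mmp15 averaged 6.26 against 0.865 (1.96), with 8 of 16 and 14 of 43 cells above 0, and 0.83 on the log2 scale without its highest cell. Mt1 and Mt2 are the symbols of metallothioneins, small metal-binding proteins, and each was above 0 in 1 of 16 and 6 of 43 cells, too few to count as measured.

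The BCL-2 family, whose members promote or block cell death, held Bok, which was not read in any losartan+anti-PD1 TEC. Of 8 measured, 2 were at least 2-fold lower (13.4% of all genes measured) and 0 at least 2-fold higher (12.4%). Of the 2 lower genes, Bok passed the filter only through control cells. Bok (chr1:93685660-93695764), a pore-forming relative of BAX and BAK, was listed at 0 in 16 of 16 losartan+anti-PD1 cells, which allows a share of up to 18.8% of cells with a value above 0 (3 cells of 16), and was above 0 in 18 of 43 control cells (41.9%, exact 95% interval 27.01 to 57.9%) at up to 94.2 TP100K. Control cells with Bok came from each cluster, 2 of 3, 15 of 28 and 1 of 12. In malignant cells of the same plates Bok averaged 1.39 against 0.127 TP100K, so the gene was read in other cells of that plate. Bax averaged 2.97 against 16.2 TP100K (log2 ratio -2.12) and was lower in each cluster, with 6 of 16 and 24 of 43 cells above 0.

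Immediate early and heat shock genes differed in direction between clusters. Their median log2 ratios were 0.81 and 1.62 in cluster 3, -0.68 and -0.10 in cluster 7 and 0.33 and 0.91 in cluster 12. Of 21 measured immediate early genes 8 were at least 2-fold higher (12.4% of all genes measured) and 3 at least 2-fold lower (13.4%). Of 13 heat shock genes 3 were at least 2-fold higher and 0 lower. Hspb1, a small heat shock protein gene, had a mean of 1096 TP100K against 297 (log2 ratio 1.88), but 12.7 against 78.3 in cluster 7. Zfp36, whose product degrades cytokine mRNA, averaged 181.2 against 36.8 (2.27), and 6.32 against 11.4 in cluster 7. Atf3 (1.90), a stress-induced factor, was listed at 0 in 4 of 4 losartan+anti-PD1 cells of cluster 7 and above 0 in 14 of 28 control cells there. Nfkbia, which encodes the NF-kappaB inhibitor, and the early growth response gene Egr1 were higher in all 3 clusters, with log2 ratios of 1.16 and 1.51 over all cells. Both families are known to respond to tissue dissociation, whose part in these values was not tested.

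**Figure D5:**
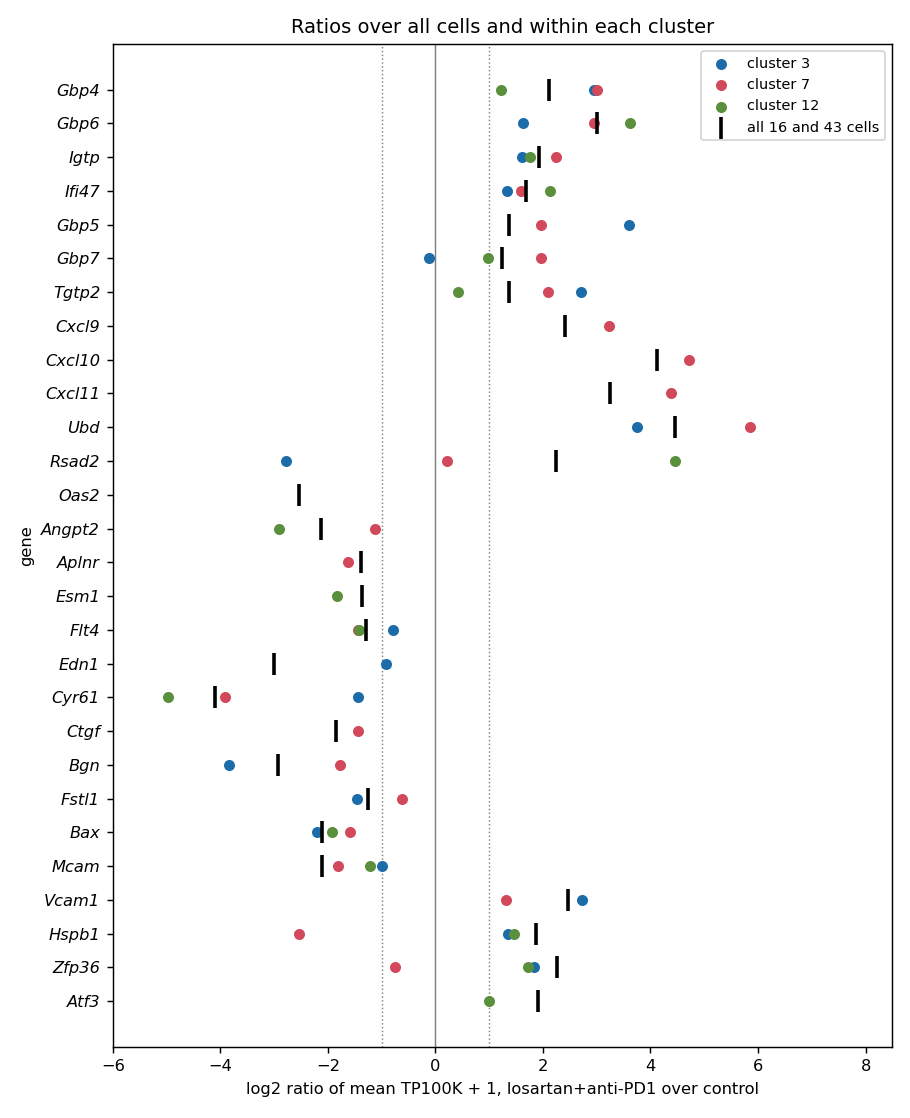
Log2 ratios of 28 genes over all cells (black bars) and within clusters 3, 7 and 12 (coloured points), with dotted lines at 2-fold and no point where a group was at 0 in that cluster. Gbp4, Gbp6, Igtp and Ifi47 lie above 0 and Cyr61, Bax and Mcam below 0 in each cluster, while Hspb1 and Zfp36 differ in sign between clusters.

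Barrier genes showed no common direction. Of 25 measured, 12 had a log2 ratio above 0 (47.7% of all genes measured), with a median of -0.12. At least 2-fold higher were 7 (12.4%) and at least 2-fold lower 3 (13.4%), and 14 junction genes had a median of -0.06. The barrier median was -0.80 in clusters 7 and 12 alone. Cldn5 averaged 546 against 652 TP100K (-0.26) and Ocln, which encodes occludin, 8.46 against 8.28 (0.03). Lrp8 (-1.98), the apolipoprotein E receptor ApoER2, Slc16a4 (-1.57) and Slc38a5 (-1.11), a glutamine transporter, were lower and were listed at 0 in cluster 12 of both groups. Tfrc (2.70), the transferrin receptor, averaged 29.1 against 2.35 TP100K in cluster 3 and had a log2 ratio of -0.10 in cluster 7. The other higher genes were Itih5 (2.01), Abcg2 (1.15), an efflux pump of the barrier, Slco1c1 (1.08), a thyroid hormone transporter, Spock2 (1.04), Slc6a6 (1.012), a taurine transporter, and Pltp (1.0094), a phospholipid transfer protein. In clusters 7 and 12 alone Tfrc, Slco1c1 and Spock2 had log2 ratios of -0.27, -0.12 and -0.84. Mfsd2a, a lipid transporter that limits transcytosis, averaged 13.6 against 46.4 TP100K in cluster 7 and 54.9 against 7.58 in cluster 3. Slco1a4, an organic anion transporter of brain vessels, averaged 1.03 against 23.2 in cluster 7. Jup (1.25), the junction protein plakoglobin, was the only junction gene past 2-fold and was higher in each cluster. The Wnt pathway, which maintains the barrier, had 17 measured genes, of which 0 were at least 2-fold higher and 2 at least 2-fold lower. Those 2 were Tcf7l1 (-1.27), a transcription factor of the pathway, and Apcdd1 (-1.03), an inhibitor of Wnt signals, both lower in each cluster.

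The receptor that losartan blocks was not read in these cells. Agtr1a and Agtr1b, which encode this angiotensin receptor, were listed at 0 in all 59 TECs, as were Agtr2, Agt and Ren1. Taking 3 cells as the limit that a count of 0 allows, 0 of 16 and 0 of 43 cells allow shares of cells with a value above 0 of up to 18.8% and 6.98%. Of 17 measured TGF-beta and BMP pathway genes, 0 were at least 2-fold higher and 2 at least 2-fold lower, with a median log2 ratio of 0.15. Energy metabolism differed little, with 1 of 34 oxidative phosphorylation genes at least 2-fold higher and 3 at least 2-fold lower, and 0 and 2 of 19 genes of hypoxia and glycolysis. Of 10 venous genes 2 were higher and 4 lower by at least 2-fold, and of 10 Notch pathway genes 1 and 1. Cell cycle genes were sparse, with 0 of 16 measured members at least 2-fold higher (12.4% of all genes measured) and 7 of 16 higher in each cluster (10.8%). Mki67, the Ki-67 proliferation antigen, was above 0 in 6 of 16 and 2 of 43 cells, at up to 10.6 and 13.6 TP100K.

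Genes named by the size of their difference added others that no list held. Ncoa3, a nuclear receptor coactivator, was above 0 in 15 of 16 and 20 of 43 cells, at medians of 10.3 and 0 TP100K, with means of 11.82 and 2.21, and was higher in each cluster. Cdc42ep2, an effector of CDC42, was at up to 377 against 31.2 TP100K, with means of 58.6 and 2.71, and 6 losartan+anti-PD1 cells lay above the highest control cell. Gm12216 had the largest log2 ratio of all genes measured, 4.80, at up to 362 against 14.3 TP100K. Fam20a, a pseudokinase of the secretory pathway, was above 0 in 4 of 7 losartan+anti-PD1 cells of cluster 12 and in none of the other cells, control included (0 of 43). Erdr1, a gene with near-identical copies, was above 0 in 9 of 16 and 1 of 43 cells. Its mean was 10.2 TP100K against 0.0141, yet malignant cells of the same plates did not share this difference, at 10.8 against 10.3. Fam20a and Erdr1 passed the filter only through losartan+anti-PD1 cells. Among lower genes, Cnpy2, a secretory pathway protein, was above 0 in 1 of 16 and 15 of 43 cells (-2.60). The transporter-like Slc35f2 was listed at 0 in 16 of 16 cells and above 0 in 17 of 43, and Ildr2 likewise with 12 of 43. Cnpy2, Slc35f2 and Ildr2 came from a list of genes that the study had picked on cells of this series, 4 measured and 3 of them at least 2-fold lower, which is not independent evidence of a direction. These 3 genes also passed the filter only through control cells.

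Some differences over all cells were also looked at within cluster 3. Pcp4l1 was above 0 in 10 of 16 and 4 of 43 cells (log2 ratio 3.77), Apoe, the lipid carrier apolipoprotein E, in 13 and 14 (1.68), and Tinagl1, a basement membrane protein, in 14 and 14 (1.18). Pcp4l1 passed the filter only through losartan+anti-PD1 cells. All 5 losartan+anti-PD1 cells of cluster 3 carried Pcp4l1 and Apoe, and Apoe averaged 132.7 against 124.8 TP100K there. Tinagl1 averaged 45.9 against 62.5 in cluster 3, so the higher mean over all cells was not present within it. Losartan+anti-PD1 cells outside cluster 3 carried Pcp4l1, Apoe and Tinagl1 as well, and the part of the cluster mix in these differences was not tested.

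TECs of the other plates are given side by side, with no comparison, since they held 57 cells of losartan (29, 24 and 4 of clusters 3, 7 and 12) and 79 cells of anti-PD1 (78, 1 and 0). Mean Gbp4 was 15.6 TP100K on the losartan plate and 15.8 on the anti-PD1 plate, and mean Igtp 17.6 and 15.6, where losartan+anti-PD1 TECs had 126.8 and 123.01. Mean Gbp6 was 3.79 and 5.94, and 28.6 with losartan+anti-PD1. Mean Cxcl10 was 21.997 and 5.17, against 67.4, and mean Ubd 13.98 and 5.58, against 167.2. Edn1 averaged 31.03 and 18.6 TP100K, against 4.29, and Bok 18.2 and 15.7 where it was listed at 0 with losartan+anti-PD1. Bax averaged 17.1 and 18.4, against 2.97. Pcp4l1 averaged 75.2 and 91.5, near the 74.1 of losartan+anti-PD1, and Erdr1 6.45 and 5.35 against 10.2 TP100K.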

How the data were processed

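Cells were sorted as live CD31-positive cells into plates and profiled by Smart-seq2, 1 plate per treatment among the 4 treatments. The authors aligned reads with Bowtie to the mm10 transcriptome and estimated TPM, which corrects for transcript length and depth, with RSEM (version 1.2.8 in the submitters' processing notes), and kept cells by the number of genes detected. The deposited TPM sum to 999999.42 to 1000000.64 per cell, so the depth in reads is unknown, and intervals of shares cover counting error over cells only. The deposited table of cell labels gave cell type and cluster. No 2 cells held identical values, and no doublet caller was run. The 764 columns of other sorts were not used, and some genes are not reported here.

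Each cell was scaled to 100000 (TP100K) with Python 3.11.15, pandas 2.3.3 and NumPy 2.4.6. Group means, log2 ratios after adding 1 TP100K, exact Clopper-Pearson 95% intervals (SciPy 1.17.1) and list scores were computed, and figures were drawn with matplotlib 3.10.9. No test was run, since no label names an animal and cells are not replicates. The calculation was checked on simulated data. Named genes were (a) the 12 highest and 12 lowest log2 ratios still past 2-fold without the top cell of the higher group, (b) the 10 largest rises and 10 largest falls in the share of cells above 0 and (c) members of 28 gene lists and 9 marker lists. The members and lists were chosen with earlier results of these data known. Gene positions are from GENCODE vM21 (GRCm38). Reads of near-identical genes are split by RSEM. Alternatives were other pseudocounts, filters, scalings and subsets of cells. Weighting the clusters equally and taking clusters 3 or 7 alone were added after seeing the data.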

Additional observations from a re-analysis of the deposited data

How the results depend on the processing

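No paired analysis was possible because the labels name no animal and no result comes from a test. The shares of genes at least 2-fold higher and lower, 12.39% and 13.44% of 7003, became 18.6% and 21.2% with a pseudocount of 0.1 TP100K, 1.98% and 0.757% with 10, 9.69% and 11.2% of 13534 genes with no filter beyond 1 cell above 0, 10.4% and 11.4% of 2718 genes above 0 in 50% of cells, 2.56% and 4.48% from differences of mean ln(TP100K + 1), and 22.1% and 27.4% in cluster 12 alone. The higher share was 6.07% after scaling to the 75th percentile of each cell and 5.30% without the highest cell of each group for each gene, where the lower shares were 9.04% and 18.4%. The median of the GTPases was 0.64 in cluster 12 and 1.97 in cluster 7 alone, that of the antiviral genes 0.36 in cluster 12 and that of the matrix genes 0.28 in cluster 3. The chemokine median was 1.1999 with a pseudocount of 10, 0.89 with no filter, 1.12 from mean ln values, 0.00 in cluster 12, 3.02 in cells with 2000 to 6000 genes, 3.23 in cluster 7, 3.19 in cluster 3 and 3.35 with the clusters weighted equally. Of 76 named genes past 2-fold, 58 kept their sign under every alternative that gave a value and 18 did not. In cluster 3 alone the log2 ratio was -0.11 for Gbp7, -4.34 for Ccl19, -2.77 for Rsad2, 2.23 for Klf2, -1.79 for Cav2, -0.13 for Abcg2, -0.44 for Tinagl1 and Slco1c1 and -0.052 for Spock2. In cluster 7 alone it was -0.41 for Usp18, 0.14 for Apln, 0.46 for Klf2, -0.10 for Tfrc, -2.53 for Hspb1, -0.76 for Zfp36 and -0.63 for Spock2. In clusters 7 and 12 it was -0.25 for Vcam1, -0.27 for Tfrc, -0.12 for Slco1c1 and -0.84 for Spock2, in cluster 12 alone -0.54 for Slc6a6, and with equal weights 0.11 for Apln, -0.31 for Slco1c1 and -0.10 for Spock2. In cells with 2000 to 6000 genes it was -0.73 for Rsad2, -1.14 for Usp18 and 0.29 for Timp1. Usp18 stood at -0.24 after 75th percentile scaling, -0.27 from mean ln values and -1.25 without the highest cells, and Socs3 at -0.19 from mean ln values. Fewer cells enter the cluster settings by construction, and the cause of the other shifts was not tested. With 4 to 7 losartan+anti-PD1 cells per cluster and an unknown depth in reads, a gene at 0 in a cluster may be present below detection, and alternative values against a group at 0 are not given.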
